A study of Mus musculus with 8 samples.

Results

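Genes of coagulation, fibrinolysis and platelet adhesion were examined in mouse lung after lipopolysaccharide (LPS), the cell wall component of Gram-negative bacteria that is used to model sepsis-induced acute lung injury. The set held 38 genes, all present in the deposited table of 24584 genes. They were chosen by their known function, with earlier results of the same comparison in view, so that their differences between the groups are given here as a description and nothing is inferred from how many of them differed. All samples were lung tissue of male ICR mice with the genotype label widetype, aged 6 to 8 weeks according to the methods. In the LPS group (n = 4) LPS from Escherichia coli was injected intraperitoneally at 5 mg/kg. In the LPS + Tan group (n = 4) the same dose of LPS followed 30 min after an intraperitoneal dose of tangeretin, a flavone of citrus peel, of 50 mg/kg. Lungs were taken 12 h after LPS in both groups. Every sample had therefore received LPS, and lungs of untreated mice or of mice given tangeretin alone were not analysed here. The labels do not tie the samples to individual animals, so the SD and the standard error (SE) measure the spread between these samples.

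Clotting starts when tissue factor meets factor VII, and a chain of serine proteases then generates thrombin. Thrombin cleaves fibrinogen into fibrin, activates platelets through protease-activated receptors and, when bound to thrombomodulin on endothelium, activates protein C, which slows further clotting. Plasmin, which is made from plasminogen by tissue-type and urokinase-type activators, dissolves the fibrin. In the inflamed lung, tissue factor on epithelium and macrophages, the shedding of endothelial anticoagulants and the inhibition of plasminogen activators are known to favour fibrin in the airspaces. Fibrinogen itself is made mainly by hepatocytes, where IL-6 raises its genes through STAT3 together with C/EBP factors.

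The counted reads of a sample numbered from 38895654 to 39931970. Counts were scaled to a common library size with TMM factors (CPM), and 15706 genes with enough reads entered the quasi-likelihood test of edgeR, among them 33 of the 38 genes. The tissue label was supported by its markers, with 8 of 8 lung epithelial markers detected at a summed 21442 to 29862 CPM in the LPS group and 19678 to 30613 CPM in the LPS + Tan group. Over all tested genes, 0 passed an adjusted p of 0.05 with this test, whereas DESeq2 called 35 genes, and 804 genes had an unadjusted p below 0.05.

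Of the tested genes, Fga and Fgg, which encode fibrinogen chains, had the log2 fold changes farthest from 0, and the third chain, Fgb, had too few reads for the test. Fga, Fgb and Fgg encode the Aα, Bβ and γ chains of fibrinogen and lie side by side on chromosome 3 (GRCm38), Fgg at chr3:83007724-83015049, Fga at chr3:83026076-83033627 and Fgb, on the opposite strand, at chr3:83040141-83049863. The sequences upstream of their start sites are shown because the chains form 1 protein but were measured at unequal levels. They were taken from RefSeq (GRCm38.p6) and are written 5′ to 3′ on the strand of the gene, with matches to a STAT motif (TTCNNNGAA) and a C/EBP motif (TTGCNNAA), on either strand, in capitals.
Fga, plus strand, chr3:83025903-83026075: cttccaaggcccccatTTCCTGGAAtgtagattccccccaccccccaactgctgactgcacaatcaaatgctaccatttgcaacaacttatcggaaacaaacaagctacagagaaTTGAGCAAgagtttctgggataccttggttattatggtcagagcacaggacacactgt
Fgg, plus strand, chr3:83007474-83007723: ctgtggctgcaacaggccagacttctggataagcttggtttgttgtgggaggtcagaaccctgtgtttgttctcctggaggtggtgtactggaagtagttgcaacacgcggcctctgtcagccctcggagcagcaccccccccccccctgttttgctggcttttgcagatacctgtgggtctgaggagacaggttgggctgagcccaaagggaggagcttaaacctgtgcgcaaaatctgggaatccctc
Fgb, minus strand, chr3:83049864-83050113: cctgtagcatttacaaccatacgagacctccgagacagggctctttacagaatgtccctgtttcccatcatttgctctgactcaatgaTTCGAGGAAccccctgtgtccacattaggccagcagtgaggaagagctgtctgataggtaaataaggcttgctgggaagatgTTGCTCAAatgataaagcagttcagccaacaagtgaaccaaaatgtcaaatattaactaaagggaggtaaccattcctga
In Fga the STAT match started 234 bases and the C/EBP match 135 bases before the RefSeq start site, and in Fgb they started 162 and 80 bases before it. The Fgg window held neither, and none of the 3 windows held the other 4 motifs searched, which were the TATA box, spelled TATAAA, the motif of GATA factors, spelled AGATAA, the motif of ETS factors, spelled AGGAAGT, and the motif of NF-κB, spelled GGGANTTTC. The STAT motif was present in 7.02% and the C/EBP motif in 9.56% of all 32851 upstream windows of 250 bases. The matches describe these letters only.

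Fga was detected at 2.43, 2.41, 5.25 and 3.03 CPM in the 4 LPS samples and at 0.689, 1.81, 0.754 and 1.38 CPM in the 4 LPS + Tan samples. Every LPS + Tan sample lay below every LPS sample, and the groups averaged 3.28 ± 1.35 and 1.16 ± 0.533 CPM (SD, n = 4). The log2 fold change was -1.50 (SE 0.38), so that the level was 2.84-fold higher in the LPS group. Fgg was detected at 4.02, 2.0, 3.27 and 1.01 CPM in the LPS samples and at 0.713, 1.35, 0.826 and 1.82 CPM in the LPS + Tan samples. Here the groups overlapped, because LPS replicate 4 lay below LPS + Tan replicates 2 and 4, and the log2 fold change was -1.13 (SE 0.44). Fgg lost its unadjusted call when any 1 of LPS replicates 1 and 3 or LPS + Tan replicates 1 and 3 was left out. Without LPS replicate 1 its log2 fold change was -0.83. Fgb was represented by 0 to 8 reads per sample and was not tested, and its 8 reads in LPS replicate 2 and in LPS + Tan replicate 2 were the highest of each group. Over the 8 samples Fga and Fgg gave Pearson's r = 0.71 on the log2(CPM + 0.1) scale (exact two-sided permutation p = 0.0478, adjusted p = 0.159) and Spearman's rho = 0.69 (exact permutation p = 0.0694, adjusted p = 0.139). Without LPS + Tan replicates 1 and 3, the samples farthest from the median of Fga, r was 0.34, so that it rests on those samples, and the r of deviations from the group means was 0.45.

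Per length, all 3 chains were rare in these lungs. Fgg averaged 1.20 ± 0.610 FPKM (reads per gene length and library size) in the LPS group and Fga 0.954 ± 0.370 FPKM, whereas Fgb averaged 0.0522 ± 0.0466 FPKM (SD, n = 4 each). The genome neighbours were thus measured at unequal levels, with Fgb lowest. Hepatocyte transcripts were examined beside them, since fibrinogen is a liver product. Of 10 hepatocyte markers 8, including Alb at 0.128 to 0.661 CPM, were below 1 CPM in every sample. The summed level of the list was 31.5 to 55.6 CPM in the LPS group and 12.4 to 32.8 CPM in the LPS + Tan group, nearly all of it from Apob and Hpx, and its part in the fibrinogen values was not tested. Fewer cells that express a gene and less RNA per cell cannot be told apart in whole tissue.

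**Figure D1:**
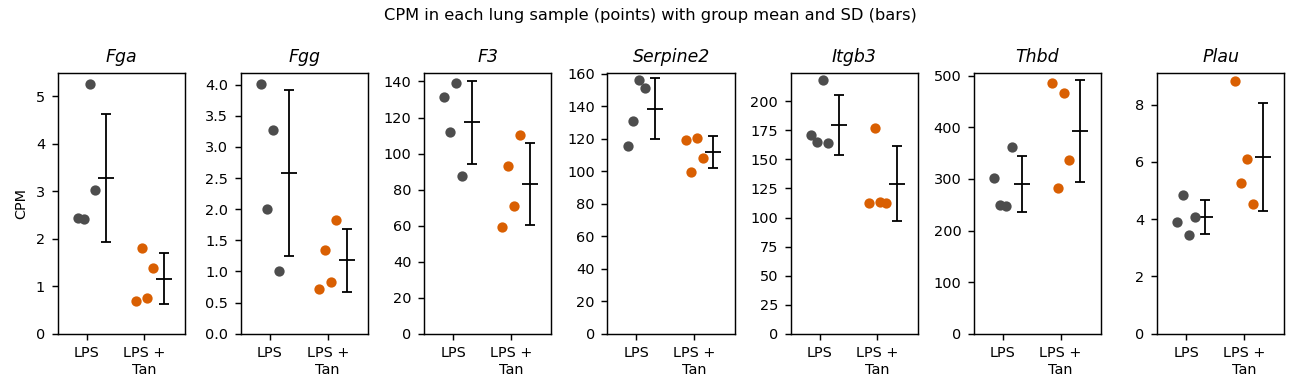
CPM of the 7 genes with an unadjusted p below 0.05 in each lung sample (points; grey LPS, orange LPS + Tan), with the group mean and SD (black bars, n = 4), on axes that start at 0. The Fga points do not overlap between the groups, with a lowest LPS value of 2.41 CPM and a highest LPS + Tan value of 1.81 CPM, whereas the points of the other 6 genes overlap.

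Of the 33 tested genes, 5 had a lower level after tangeretin at an unadjusted p below 0.05, namely Fga, Fgg, F3, Serpine2 and Itgb3, where 2.25% of all tested genes were. Thbd and Plau were higher, 2 of 33, where 2.87% of all tested genes were. At the thresholds the study used for differential genes, which also ask for an absolute log2 fold change above 1, Fga and Fgg were lower, 2 of 33, against 0.299% of all tested genes, and 0 of 33 were higher, against 0.35%. Groups that did not overlap in CPM were found for 1 gene that was lower, Fga, against 1.15% of all tested genes, and for 0 genes that were higher, against 1.58%. After adjustment by the Benjamini-Hochberg method over all tested genes 0 of the 33 passed, as did 0% of all tested genes, and adjusted p ran from 0.850 for Fga to 0.998. DESeq2 gave Fga an adjusted p of 0.0270 and called no other gene of the set, and over the 19 alternatives the adjusted p of Fga ran from 0.0270 to 0.9999. In total 23 of the 33 had a log2 fold change below 0, against 48.2% of all tested genes, with a median of -0.17 against 0.01 for all. These shares are not independent of the way the genes were chosen.

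**Figure D2:**
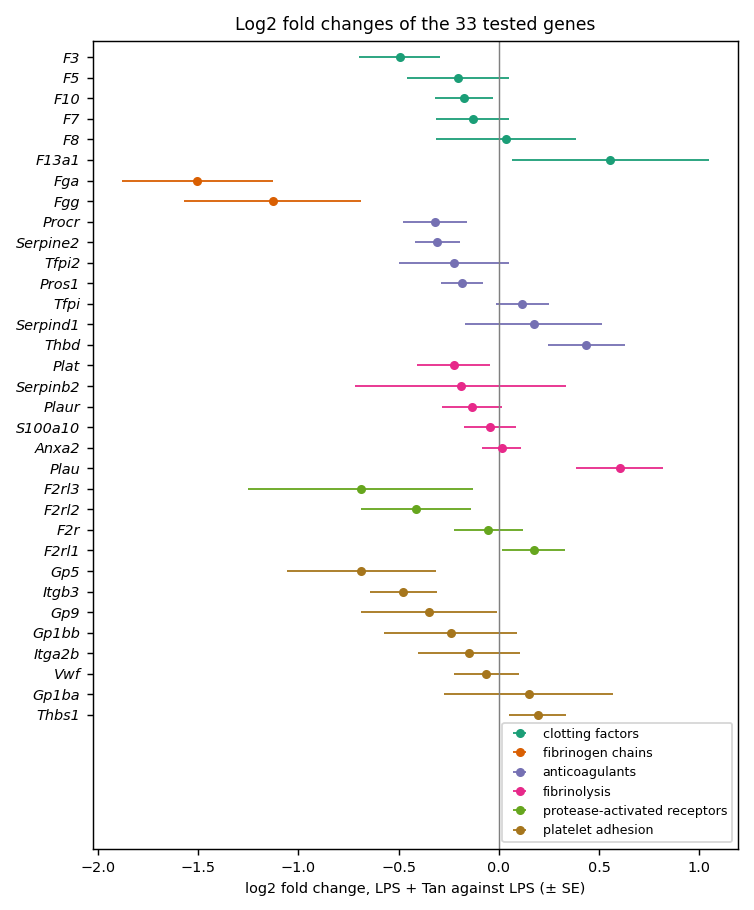
Log2 fold change of LPS + Tan against LPS with its SE (horizontal bars) for the 33 tested genes, ordered within role and coloured by role. Fga at -1.50 and Fgg at -1.13 lie farthest from 0, and the other genes lie between -0.69 and 0.60.

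Tissue factor, the cell-surface starter of clotting, is encoded by F3 (chr3:121723537-121735048). It had the highest level per length of the clotting factors, at 61.5 ± 11.3 FPKM in the LPS group and 44.8 ± 10.8 FPKM in the LPS + Tan group (SD, n = 4). In CPM, F3 was 131, 112, 139 and 87.3 in the LPS samples and 59.0, 93.1, 71.1 and 110.0 in the LPS + Tan samples. LPS replicate 4 lay within the range of the LPS + Tan group and LPS + Tan replicates 2 and 4 within that of the LPS group. The log2 fold change was -0.50 (SE 0.20), and it lost its unadjusted call when any 1 of LPS replicates 1 and 3 or LPS + Tan replicates 1 and 3 was left out.

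None of the other clotting factors had an unadjusted p below 0.05 by edgeR over all samples. F7, the factor that tissue factor binds, and F10, the protease it activates, lie 1498 bases apart on chromosome 8 and reached 12.1 ± 3.11 and 15.9 ± 1.41 FPKM in the LPS group, with log2 fold changes of -0.13 (SE 0.18) and -0.17 (SE 0.15). F5, the cofactor of factor X, averaged 5.40 ± 1.31 CPM in the LPS group and 4.68 ± 1.48 CPM in the LPS + Tan group. F8, the cofactor of factor IX, stayed between 18 and 48 reads per sample. F11 had 0 to 5 reads per sample and was not tested.

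F13a1, the subunit of factor XIII that cross-links fibrin, showed the widest spread of the set, with an SD within groups of 0.91 on the log2(CPM + 0.1) scale. It was 104, 118, 53.7 and 43.9 CPM in the LPS samples and 227, 40.1, 131 and 72.2 CPM in the LPS + Tan samples. The highest and the lowest sample of all 8 were both in the LPS + Tan group. Ccr2, the chemokine receptor of inflammatory monocytes, which also contain F13a1, was 27.3, 43.1, 17.9 and 15.8 CPM and 41.3, 12.4, 34.7 and 21.4 CPM in the same order. Both genes were thus lowest in LPS + Tan replicate 2 and had their 3 highest values in LPS replicate 2 and LPS + Tan replicates 1 and 3. Ccr2 was picked for this after its values were seen, and other genes of the monocyte list ordered the samples differently. Ly6c2 was highest in LPS + Tan replicate 4, at 187 CPM, and lowest in LPS replicate 4, at 41.8 CPM. Vcan was highest in LPS replicate 3, at 141 CPM, and lowest in LPS + Tan replicate 4, at 51.6 CPM, where Cx3cr1 was also lowest. The whole list of 7 genes, which holds F13a1 and F10, summed to 348 to 548 CPM in the LPS group and to 418 to 670.3 CPM in the LPS + Tan group. Whether the number of monocytes set these values was not tested.

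Among the anticoagulants, thrombomodulin (Thbd, chr2:148404466-148408188), which turns thrombin from a clotting enzyme into an activator of protein C, was the most abundant, at 76.9 ± 14.7 FPKM in the LPS group and 108 ± 30.2 FPKM in the LPS + Tan group (SD, n = 4). Its CPM was 302, 250.1, 247 and 361 in the LPS samples and 486, 282, 467 and 336 in the LPS + Tan samples. LPS + Tan replicates 1 and 3 lay above every LPS sample and replicates 2 and 4 within the LPS range, with a log2 fold change of 0.44 (SE 0.19). Without LPS + Tan replicate 1 it was 0.31, and the unadjusted call was lost, as it was without LPS + Tan replicate 3 or LPS replicate 1, 2 or 3. The endothelial marker list, whose cells carry most thrombomodulin, summed to 3952 to 4845 CPM in the LPS group and to 4547 to 5001 CPM in the LPS + Tan group. Its 10 members were all detected, 7 of them with a log2 fold change above 0, against 8135 of all 15706 tested genes. The part of these markers in the Thbd difference was not tested.

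The endothelial protein C receptor (Procr, chr2:155751117-155755471), which presents protein C to the complex of thrombin and thrombomodulin, moved the other way across samples. It was 41.9, 44.5, 49.9 and 29.4 CPM in the LPS samples and 30.2, 37.2, 28.2 and 37.3 CPM in the LPS + Tan samples. The log2 fold change of Procr was -0.32 (SE 0.16), without an unadjusted call over all samples. Without LPS replicate 4 it was -0.45, at an unadjusted p below 0.05 by edgeR. The group differences of Thbd and Procr were thus opposite in sign, and they also enter the r over all 8 samples. Of 10 pairs of interacting genes compared over the 8 samples on the log2(CPM + 0.1) scale, Thbd with Procr was the only 1 past the adjusted threshold. Pearson's r was -0.90 (exact two-sided permutation test, p = 0.00305, adjusted p = 0.0305) and Spearman's rho was -0.86 (exact permutation p = 0.0107, adjusted p = 0.0536). Without the 2 samples farthest from the median of Thbd, LPS + Tan replicates 1 and 3, r was -0.88 (exact permutation p = 0.0167 over 6 samples). The relation was also present inside the groups, with r = -0.94 over the 4 LPS samples, r = -0.93 over the 4 LPS + Tan samples and -0.86 for deviations from the group means. With 1 sample left out r stayed between -0.94 and -0.87, and the adjusted p passed 0.05 without any 1 of 5 samples, namely LPS replicates 1, 2 and 3 and LPS + Tan replicates 3 and 4, and reached 0.0923. The adjusted p of the 6 pairs not named elsewhere, Anxa2 with S100a10, Gp1ba with Gp9 and with Gp5, Plau with Plaur, F3 with Tfpi and F7 with F10, ran from 0.180 to 0.907 by the exact permutation test.

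**Figure D3:**
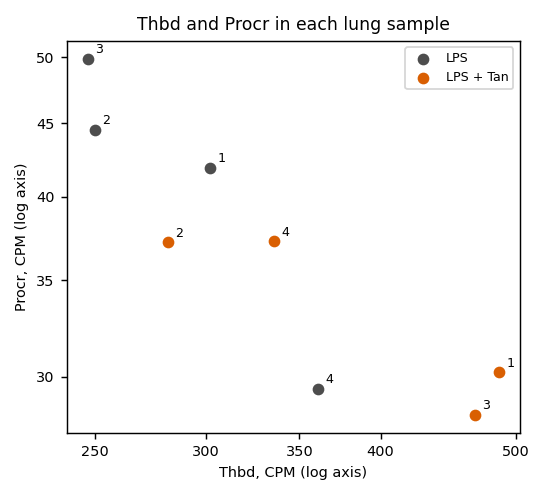
CPM of Procr against CPM of Thbd in the 8 lung samples (log axes; grey LPS, orange LPS + Tan; numbers are replicate numbers). LPS replicate 3 has the lowest Thbd, at 247 CPM, and the highest Procr, at 49.9 CPM, and the 3 samples with the highest Thbd have the 3 lowest Procr values.

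Serpine2 (protease nexin-1, chr1:79794197-79861180), an inhibitor of thrombin and of plasminogen activators, was 115, 131, 156 and 151 CPM in the LPS samples and 119, 99.4, 121 and 108 CPM in the LPS + Tan samples. LPS replicate 1 was the only LPS sample inside the LPS + Tan range, and the log2 fold change was -0.31 (SE 0.11). It lost its unadjusted call without LPS replicate 3, LPS replicate 4 or LPS + Tan replicate 2. Pros1, the cofactor of activated protein C, was as abundant per length as Serpine2 in the LPS group, at 54.2 ± 3.76 against 53.4 ± 6.82 FPKM, and differed by a log2 fold change of -0.18 (SE 0.11). Tfpi, which blocks tissue factor with factor VII, averaged 27.6 ± 3.43 CPM in the LPS group and 30.0 ± 4.74 CPM in the LPS + Tan group. Tfpi2 and Serpind1 (heparin cofactor II) averaged 3.70 to 4.91 CPM in the 2 groups, and Proc and Serpinc1 (antithrombin), which the liver makes, had at most 8 and 3 reads per sample.

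In the fibrinolysis group, annexin A2 and S100A10, which together hold plasminogen and tissue-type activator on the cell surface, did not separate the groups. Anxa2 had the highest level per length of all 38 genes, at 379 ± 27.8 FPKM in the LPS group and 394 ± 10.6 FPKM in the LPS + Tan group. Its CPM was 754, 616, 709 and 694 in the LPS samples and 699, 703, 648 and 748 in the LPS + Tan samples, with a log2 fold change of 0.01 (SE 0.10). S100a10 reached 149 ± 24.0 and 148 ± 17.4 FPKM, with a log2 fold change of -0.04 (SE 0.13). Plat, the tissue-type activator, was the gene with the second highest level, at 261 ± 17.1 FPKM in the LPS group and 229.7 ± 63.4 FPKM in the LPS + Tan group. Its SD was larger in the LPS + Tan group, where replicate 1 had 406 CPM and replicate 2 had 817 CPM.

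Plau, the urokinase-type activator (chr14:20836660-20843385), was 3.89, 4.86, 3.45 and 4.07 CPM in the LPS samples and 8.83, 5.26, 6.10 and 4.52 CPM in the LPS + Tan samples. Only LPS + Tan replicate 4 lay inside the LPS range, and the log2 fold change was 0.60 (SE 0.22), or 1.52-fold. Without LPS + Tan replicate 1 it was 0.38 and the unadjusted call was lost, as it was without LPS replicate 3. Its receptor Plaur was far more abundant per length, at 46.7 ± 6.74 FPKM against 1.60 ± 0.264 FPKM for Plau in the LPS group, with a log2 fold change of -0.14 (SE 0.15). Serpinb2 (PAI-2), an inhibitor of urokinase, ranged from 0.520 to 2.67 CPM over the 8 samples, and Plg, the liver-made plasminogen, had at most 2 reads per sample.

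**Figure D4:**
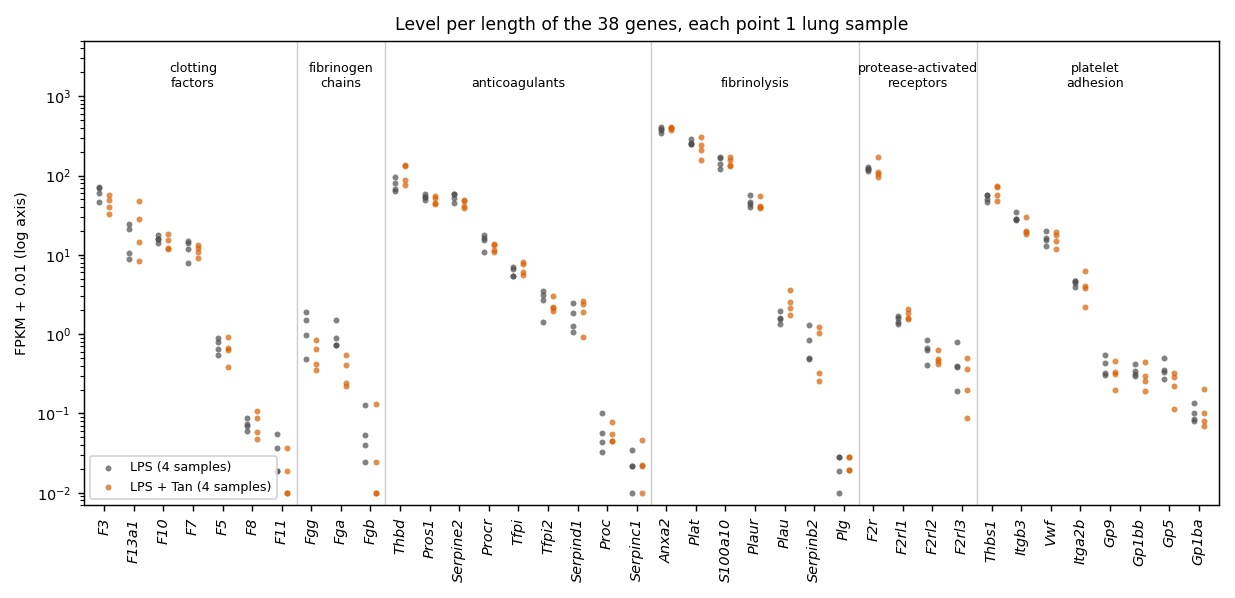
FPKM plus 0.01 (log axis) of the 38 genes in each lung sample, grouped by role and ordered by mean within role (grey LPS, orange LPS + Tan). Levels run from a mean of 379 FPKM for Anxa2 in the LPS group down to Plg at 0.0116 FPKM.

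The protease-activated receptors carry the thrombin signal into cells. F2r, the main thrombin receptor (PAR1), stood far above the other 3 receptors, at 121 ± 6.96 FPKM in the LPS group and 120.3 ± 34.5 FPKM in the LPS + Tan group. Its CPM was 440, 373, 423 and 408 in the LPS samples and 357, 569, 334 and 326 in the LPS + Tan samples. Of the LPS + Tan samples, 3 lay below every LPS sample and replicate 2 lay above all of them, so that the log2 fold change was -0.05 (SE 0.17) over all samples and -0.28, at an unadjusted p below 0.05, without replicate 2. F2rl1 (PAR2), which responds to other proteases, and F2rl2 (PAR3) lie on either side of F2r on chromosome 13, within 78365 bases. Their levels in the LPS group were 1.51 ± 0.173 and 0.629 ± 0.183 FPKM, with log2 fold changes of 0.17 (SE 0.16) and -0.42 (SE 0.27). F2rl3 (PAR4), a thrombin receptor of mouse platelets, had 6 to 62 reads per sample and a log2 fold change of -0.69 (SE 0.56).

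Platelets bind exposed collagen through von Willebrand factor and the GPIb-IX-V complex and bind each other through integrin αIIbβ3. Itgb3 (chr11:104608000-104670476) encodes the β3 chain, which also pairs with αV on other cells. It was 171, 165, 218 and 164 CPM in the LPS samples and 113, 177, 113 and 113 CPM in the LPS + Tan samples. LPS + Tan replicate 2 lay within the LPS range and the other 3 below every LPS sample, with a log2 fold change of -0.48 (SE 0.17) that lost its unadjusted call without LPS replicate 3. Itga2b, which encodes the αIIb chain, was lower per length, at 4.38 ± 0.356 against 29.6 ± 3.65 FPKM for Itgb3 in the LPS group. It was highest in LPS + Tan replicate 2, at 21.3 CPM, and lowest in replicate 1 of that group, at 7.38 CPM. Over the 8 samples Itga2b and Itgb3 gave r = 0.68 (exact two-sided permutation p = 0.0430, adjusted p = 0.159) and rho = 0.86 (exact permutation p = 0.0107, adjusted p = 0.0536). Without LPS + Tan replicates 1 and 2 r was 0.80 (exact permutation p = 0.0778 over 6 samples).

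The 4 genes of the GPIb-IX-V complex were at the edge of detection. Gp1ba, Gp1bb, Gp5 and Gp9 had at most 35, 36, 42 and 55 reads per sample, and their log2 fold changes of 0.15, -0.24, -0.69 and -0.35 had SEs of 0.33 to 0.42. Gp1bb shares 1902 exon bases on the same strand with the septin gene Septin5, so reads could have been divided between them. For Gp5, as for F2rl3, all 4 LPS samples and 3 of the 4 LPS + Tan samples reached the minimum of 0.254 CPM set by the count filter. Gp1ba with Gp1bb gave r = 0.64 (exact two-sided permutation p = 0.0902, adjusted p = 0.180) over the 8 samples. Without LPS replicate 2 and LPS + Tan replicate 2, the samples farthest from the median of Gp1ba, r fell to -0.11, so that it rests on those samples. With all samples kept, r was 0.71 for deviations from the group means, 0.99 over the 4 LPS samples and 0.65 over the 4 LPS + Tan samples. Vwf, a marker of larger vessels as well as of platelets, averaged 146 ± 27.6 CPM in the LPS group and 140.2 ± 25.3 CPM in the LPS + Tan group. Thbs1 (thrombospondin-1), an adhesive protein of platelet granules that other lung cells also make, had the highest level per length of the group, at 53.1 ± 5.44 and 62.6 ± 12.2 FPKM. It was 303, 334, 350.4 and 273 CPM in the LPS samples and 415, 420.4, 318 and 288 CPM in the LPS + Tan samples, with a log2 fold change of 0.19 (SE 0.14).

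Platelet and megakaryocyte markers were examined beside these genes. All 8 were detected, 2 of them below 1 CPM in every sample. A log2 fold change below 0 was found for 6 of the 8, against 48.2% of all tested genes. It ran from -0.68 for Ppbp to -0.01 for P2ry12, whereas Clec1b (0.08) and Treml1 (0.74) were above 0. The 8 markers summed to 25.1 to 28.8 CPM in the LPS group and to 17.5 to 25.7 CPM in the LPS + Tan group. Their part in the values of Itga2b, Itgb3 and the GPIb-IX-V genes was not tested. Erythroid transcripts, which also come with blood, had a log2 fold change below 0 for 7 of 7 genes, against 48.2% of all tested genes. They summed to 1428 to 3456 CPM in the LPS group and to 1328 to 2178 CPM in the LPS + Tan group. Whether the amount of blood in the lungs differed was not tested.

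Position within the group was not the same for all samples. On the log2(CPM + 0.1) scale LPS + Tan replicate 2 was the highest of its group for 13 of the 33 tested genes and replicate 1 the lowest for 13, and in the LPS group replicate 3 was the highest for 13 and replicate 4 the lowest for 14. Positions were not counted over all tested genes, so these counts cannot be read as particular to the set. The median SD within groups was 0.32 for the 33 genes against 0.21 for all tested genes. It was larger in the LPS + Tan group than in the LPS group for 25 of the 33 genes and for 64.9% of all tested genes. Leaving out LPS + Tan replicate 1 moved the median log2 fold change of the 33 genes from -0.17 to -0.08, and leaving out replicate 2 moved it to -0.25.

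**Figure D5:**
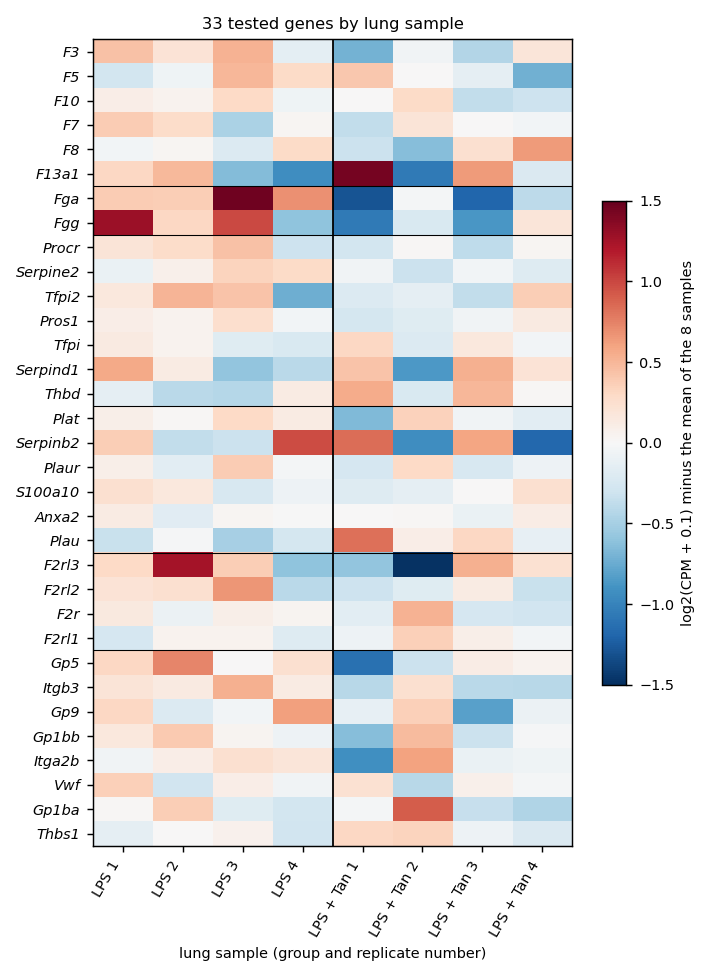
Log2(CPM + 0.1) of the 33 tested genes in each lung sample minus the mean of the 8 samples (red above, blue below, colour scale from -1.5 to 1.5), in the order of the fold change plot, with a vertical line between the groups and horizontal lines between roles. Fga and Fgg are mostly red on the left and blue on the right, while F13a1 is deep red in LPS + Tan replicate 1 and blue in replicate 2, and Itga2b is the reverse.

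Further genes of the same processes were taken from lists written with the set. Of 35 other coagulation and fibrinolysis genes, 24 were tested, 2 were lower and 1 was higher in the LPS + Tan group at an unadjusted p below 0.05, against 2.25% and 2.87% of all tested genes, with a median log2 fold change of -0.06. Tgm2, the tissue transglutaminase that cross-links proteins including fibrin, averaged 1876 ± 281 CPM in the LPS group and 1263 ± 282 CPM in the LPS + Tan group (SD, n = 4), without overlap (log2 fold change -0.57, SE 0.17). Mcfd2, which with LMAN1 carries factors V and VIII out of the endoplasmic reticulum, was lower by a log2 fold change of -0.32 (SE 0.10). Klf4, a transcription factor that raises thrombomodulin in endothelium, was higher by 0.36 (SE 0.15). Klf2, of the same family and list, went the other way without an unadjusted call, with a log2 fold change of -0.22 (SE 0.14). Klf2 averaged 136 FPKM over all samples, against 16.0 FPKM for Klf4. The part of either in the Thbd difference was not tested. The highest levels per length in this list were those of Serping1 (C1 inhibitor), at 671 FPKM, and Tgm2, at 440 FPKM, over all samples.

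Of 30 other platelet and megakaryocyte genes, 29 were tested, 1 was lower and 1 was higher at an unadjusted p below 0.05, near the 2.25% and 2.87% of all tested genes, with a median log2 fold change of 0.08. Ppbp, a chemokine precursor stored in platelet granules, averaged 9.74 ± 1.95 CPM in the LPS group and 6.09 ± 1.29 CPM in the LPS + Tan group, with overlap of the groups (log2 fold change -0.68, SE 0.20). Trpc6, a calcium channel of platelets and of lung vessels, was 16.1 ± 0.625 and 23.9 ± 4.85 CPM, without overlap (log2 fold change 0.57, SE 0.14). Pf4, the other abundant platelet granule chemokine, was 7.28 ± 1.50 and 6.44 ± 1.90 CPM. The most abundant genes of this list per length, Cd9 and Itgb1, are made by many cell types and were at 335 and 332 FPKM.

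Upstream windows from RefSeq were found for 28 of the 38 genes, in 33 windows, and were compared with all 32851 windows over the 250 bases before the start site. The C/EBP motif was present in 8 of the 33 windows, those of F11, F2rl2, Fga, Fgb, Plaur, Procr and Serpinb2, and in 9.56% of all windows. The STAT motif was present in 5 of 33, those of Fga, Fgb, Gp5, Pros1 and Serpinb2, against 7.02%, and the GATA motif in 5 of 33, including that of Gp5, against 9.99%. The TATA box was in 4, the ETS motif in 3 and the κB motif in 0 of the 33 windows, against 12.4%, 7.69% and 0.941% of all. Windows of 1 gene can overlap, so they are not independent. Plat, Vwf, Proc, Plau, Thbd, Itgb3, F2rl1, S100a10, Thbs1 and Plg were not among the matched genes.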

How the data were processed

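Lung RNA of 4 LPS and 4 LPS + Tan samples was sequenced. The authors deposited raw read counts per gene and FPKM values, in which each count was scaled to gene length and to the sample total. The submitters' processing notes name the builds GRCm38 and mm10, and neither aligner nor counting tool is given in the sources used here. The methods give TRIzol extraction and a VAHTS library kit, whereas the labels name a column extraction and another kit. Of the sample columns, 0 were left without a sample. Totals per sample were 38895654 to 39931970 reads, so that precision was set by the spread between samples except for genes with few reads.

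The count table was fitted with edgeR 4.0.16 under R 4.3.3 (filterByExpr, TMM scaling, quasi-likelihood test, no covariate, Benjamini-Hochberg adjustment over 15706 genes). The SE is the log2 fold change divided by the square root of F. CPM are counts over the TMM-scaled total of the tested genes. Levels were compared between genes only in FPKM. Gene pairs were fixed by known interaction, 12 in number, and the 10 with a mean count of at least 10 for both genes were correlated with exact permutation tests and adjusted over the 10. The permutations took no account of group, so a difference between the groups also enters the p of a pair. All 38 genes are named, with values in every sample for those at an unadjusted p below 0.05, the most abundant of each role, the correlated pair and, named after its values were seen, F13a1 with Ccr2. The genes, the 6 roles, the 2 lists of other genes and the 11 lists of cell markers were chosen with earlier results of these data known. Alternatives were DESeq2 1.42.0, limma 3.58.1 (voom, and log2 of FPKM plus 1 or 0.1), the likelihood ratio test, other scalings and filters, a replicate block, and each sample left out. The fits with edgeR, DESeq2 and limma were tested on simulated counts. Upstream sequences and motifs came from RefSeq windows of GRCm38.p6, and gene positions from GENCODE M21. Bases that GENCODE places inside a transcript were left out of the Fga window.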

Additional observations from a re-analysis of the deposited data

Results flagged for a closer look

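In groups of 4 samples, the gap between the highest or lowest sample and its neighbour was compared with the range of the group for all 38 genes in both groups, 76 groups in all, by Dixon's test. It picked 4, near the 3.8 expected by chance at about 1 in 20. The share of the range taken by the gap was 0.872 for Fgb in LPS + Tan replicate 2, at 0.203 CPM or 8 reads against 0.0260 CPM in the next sample. It was 0.871 for F2r in LPS + Tan replicate 2, at 569 CPM against 357 CPM. For Itgb3 it was 0.862 in LPS replicate 3, at 218 CPM against 171 CPM, and 0.99 in LPS + Tan replicate 2, at 177 CPM against 113 CPM. Of the 4, 3 were the highest value of LPS + Tan replicate 2. Without that sample the log2 fold change of Itgb3 was -0.67 and that of F2r was -0.28.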

How the results depend on the processing

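All 7 genes with an unadjusted p below 0.05 kept the direction of their difference in all 19 alternatives, and Fga kept an unadjusted p below 0.05 in all 19. The number of lower genes, 5 in the main fit, was 4 with limma-voom and with limma on log2(FPKM + 1) and 3 with the replicate block. It was 1 to 7 when a sample was left out, with 1 without LPS replicate 3. The genes counted were not always the same, and without LPS + Tan replicate 2 they included F10, Plat and F2r, which the main fit did not call. The 2 higher genes numbered 1 with limma-voom, with limma on log2(FPKM + 1) and with limma on log2(FPKM + 0.1), and 0 to 2 when a sample was left out. The 2 lower genes past the thresholds of the study numbered 1 with limma-voom, with limma on log2(FPKM + 0.1) and with the replicate block, 0 with limma on log2(FPKM + 1), and 1 to 2 when a sample was left out. DESeq2 called 1 gene, Fga, at an adjusted p below 0.05, where the other 18 alternatives called 0 of the set. The median log2 fold change of the tested genes, -0.17, was -0.079 with limma on log2(FPKM + 1) and between -0.255 and -0.0781 when a sample was left out. Gp1ba with Gp1bb passed the adjusted threshold without LPS + Tan replicate 1 (r = 0.89, exact permutation test, adjusted p = 0.0159). The pseudocount of 1 exceeds the mean FPKM of Fga in both groups, and its log2 fold change there was -0.53. The cause of the other changes was not tested. Samples with the same replicate number gave correlations of deviations from the group means of 0.12, -0.03, -0.15 and 0.02. Samples with different numbers gave -0.21 to 0.22. These values show no pairing by number, but they cannot exclude a shared batch with little effect on expression. Genes with few reads, such as Fgb, the GPIb-IX-V genes and F2rl3, are limited by depth.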
